A study of Mus musculus with 18 samples.

Results

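The genes described here are 8 transporters that carry bile acids and organic anions across the membranes of mouse hepatocytes, namely *Slc10a1*, *Slco1a1*, *Slco1a4*, *Slco1b2*, *Abcb11*, *Abcb4*, *Abcc2* and *Abcc3*. They were taken by gene symbol from a table of 15052 genes measured by bulk RNA-seq in 18 livers, and all 8 were in it. The study fed wild-type (WT) C57BL/6J mice and whole-body *Apoe* knockout (KO) mice, which lack apolipoprotein E in every cell type, a liquid diet for 5 days and then either kept them on that diet (pair-fed, labelled Ctrl) or gave them ethanol at 5% by volume for 10 days (EtOH-fed). On day 11 the EtOH-fed mice received 5 g/kg ethanol by gavage and the pair-fed mice 9 g/kg maltose dextrin, and livers were taken 9 hours later. The groups were pair-fed WT (n = 4), pair-fed *Apoe* KO (n = 5), EtOH-fed WT (n = 5) and EtOH-fed *Apoe* KO (n = 4, numbered 1, 2, 4 and 5). Mice were 10 to 12 weeks old, and the labels call all of them female, whereas the methods of the study allow either sex. WT and *Apoe* KO mice were bought as separate lines and are not described as littermates, so genotype and line of origin cannot be told apart.

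Hepatocytes take bile acids up from sinusoidal blood and pump them into the bile canaliculus, and this cycle drives bile flow. *Slc10a1* (NTCP) is the sodium-dependent carrier that brings conjugated bile acids into the cell, and the *Slco1* genes (OATPs) encode sodium-independent carriers of bile acids, bilirubin, steroid conjugates and drugs. On the canalicular side *Abcb11* (BSEP) exports bile salts, *Abcb4* (MDR2 in the mouse) moves phosphatidylcholine to the outer leaflet so that it enters bile, and *Abcc2* (MRP2) exports conjugated anions such as bilirubin glucuronide. *Abcc3* (MRP3) exports conjugates across the basolateral membrane into blood and is known to rise in cholestasis.

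The values are read counts per gene that the authors scaled to nearly the same total in each mouse and rounded. Sums lay between 32.27 M and 32.29 M per mouse, so the depth does not show in them, but the spacing of the low values gave an estimate for 16 of the 18 mice. The shallowest was pair-fed WT mouse 1, with 5.60 M reads, and the deepest an EtOH-fed WT mouse, with 52.21 M. Medians were 10.96 M for EtOH-fed *Apoe* KO, 39.49 M for EtOH-fed WT (3 mice resolved), 23.93 M for pair-fed *Apoe* KO and 14.9 M for pair-fed WT mice. *Apoe* was at 611230 to 798431 in WT mice and at 8586 to 108651 in KO mice. EtOH-fed *Apoe* KO mouse 1 went against its label for sex, with *Xist*, the RNA that silences an X chromosome, at 826 against 15227 to 30379 in the other 17 mice, and with the Y-linked *Ddx3y* at 1077 against 2 to 118. The tests of the 8 genes, the gene lists and the summed levels were also run without this mouse. For the last 2 this alternative was added after the values were seen. Where a call stated below for a named gene changed, the result without this mouse is given beside that gene. Hepatocyte markers were abundant, with 15 of the 16 listed found and sums of 2918387 to 4947161 per mouse. In whole liver, fewer hepatocytes and less RNA per hepatocyte cannot be told apart.

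The 3 *Slco1* genes lie together on chromosome 6 of GRCm38, *Slco1b2* at chr6:141629518-141686646 on the plus strand, *Slco1a4* at chr6:141805440-141856199 and *Slco1a1* at chr6:141907282-141946962, both on the minus strand. *Slc10a1* is at chr12:80953183-80968705 (minus), *Abcb11* at chr2:69238282-69342616 (minus), *Abcb4* at chr5:8893717-8959231 (plus), *Abcc2* at chr19:43782192-43840740 (plus) and *Abcc3* at chr11:94343295-94392997 (minus). All 8 are protein-coding genes in GENCODE release 21, and none shares a chromosome with *Apoe*, so sequence around the targeted locus carried with the knockout does not include them. Reads could be shared between relatives, since 1.64% of the 50-base stretches in *Slco1a1* exons and 1.61% of those in *Slco1a4* exons recur in other genes. Each other, *Slco1a5*, *Slco1a6* and *Gm6614* are among the genes that hold them. Of the stretches in *Abcb4*, 2.87% recur elsewhere, *Abcb1a* and *Abcb1b* among the genes that hold them. *Abcb11* exons overlap the opposite-strand genes *Gm13613* and *Gm13614* over 3.01% of their bases, and whether counting used strand is not given in the sources used here.

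The sequences just before the starts of *Slco1b2* and *Slco1a1*, the members that were lower in EtOH-fed than in pair-fed *Apoe* KO liver by the widest margins, and of *Abcb4*, which was higher in EtOH-fed liver of both genotypes, are given first because the results turn on these genes. They are RefSeq promoter sequences of GRCm38.p6, written 5′ to 3′ on the strand of the gene and ending at the base before the annotated start, with capitals marking matches to 5 motifs searched on both strands. *Slco1b2* is shown from chr6:141629268-141629517, *Slco1a1* from chr6:141946963-141947212 (minus strand) and *Abcb4* from chr5:8893471-8893716.
Slco1b2: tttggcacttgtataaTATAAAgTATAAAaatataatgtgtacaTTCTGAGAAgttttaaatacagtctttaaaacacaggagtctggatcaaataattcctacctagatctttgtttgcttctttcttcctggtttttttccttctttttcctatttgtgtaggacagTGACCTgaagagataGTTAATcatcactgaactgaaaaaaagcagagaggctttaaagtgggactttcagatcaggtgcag
Slco1a1: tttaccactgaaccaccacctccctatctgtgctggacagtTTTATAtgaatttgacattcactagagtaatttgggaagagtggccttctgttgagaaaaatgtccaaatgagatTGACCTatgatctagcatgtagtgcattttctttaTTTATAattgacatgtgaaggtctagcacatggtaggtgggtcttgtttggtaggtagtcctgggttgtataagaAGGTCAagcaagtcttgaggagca
Abcb4: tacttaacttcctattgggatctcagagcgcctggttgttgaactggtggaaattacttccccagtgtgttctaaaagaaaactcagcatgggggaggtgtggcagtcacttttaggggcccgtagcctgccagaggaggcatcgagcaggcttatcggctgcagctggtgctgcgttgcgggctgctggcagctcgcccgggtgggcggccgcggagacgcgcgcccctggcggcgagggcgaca

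The motifs were AGGTCA, the half-site of many nuclear receptors, GTTAAT, a half-site of HNF1, TTCNNNGAA, the spaced palindrome of STAT factors, TGACNNNGC, the core of the antioxidant response element, and the TATA box TATAAA. *Slco1b2* held TATAAA at 234 and 227 bases before the start, TTCTGAGAA at 206, AGGTCA on the opposite strand (printed TGACCT) at 81 and GTTAAT at 66. *Slco1a1* held AGGTCA at 24 bases and, on the opposite strand, at 134 bases, and the TATA box on the opposite strand at 209 and 99. *Abcb4* held none of the 5 in this window. Across 32851 promoters, the same 250 bases held AGGTCA in 14.02%, GTTAAT in 6.43%, TTCNNNGAA in 7.02%, TGACNNNGC in 10.2% and TATAAA in 12.4%. Of the other members, *Abcb11* held AGGTCA on the opposite strand at 56 bases, and *Abcc2* held it on its own strand at 49 and TGACATAGC at 98. Both *Abcc2* matches are counted from the RefSeq start at chr19:43782308 and lie downstream of the GENCODE start at chr19:43782192. *Slc10a1* held TTCTCTGAA at 53 and the TATA box on the opposite strand at 128 before its first listed start, and AGGTCA at 87 before the other. That AGGTCA lies inside the gene, downstream of the first start. *Slco1a4* held none. No matches overlapped in the sequences printed. A match describes letters and is not a binding site. RefSeq entries were found for 7 of the 8 genes, and none was found for *Abcc3*.

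To compare levels between genes, values were divided by the length of each gene's merged exons. Merged exons join all annotated isoforms, with 9383 bases for *Abcb4* and 5146 for *Abcb11*, so the order of genes depends on this choice of length. *Slc10a1* had the highest mean level per kb in each of the 4 groups and *Slco1b2* the next. In pair-fed WT liver, *Slc10a1* was at 9191 ± 1556 per kb (SD, n = 4) and *Slco1b2* at 7002 ± 1002. These ranges overlapped, although *Slc10a1* was the higher of the pair in all 4 mice. The canalicular exporters *Abcb11* at 1774 ± 251 and *Abcc2* at 1681 ± 167 overlapped, as did *Abcc3* at 1018 ± 248 and *Abcb4* at 850 ± 110. *Slco1a4* followed at 594 ± 55.8 and *Slco1a1* was lowest at 184 ± 79.2, and neither overlapped its neighbours.

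The order was not the same in every group. In pair-fed *Apoe* KO liver, *Slco1b2* at 8985 ± 408 per kb reached *Slc10a1* at 9054 ± 1037, and *Slc10a1* was the higher in 2 of 5 mice. In EtOH-fed *Apoe* KO liver, *Abcc3* at 2068 ± 196 per kb ranked just below *Slco1b2* and above *Abcb11* at 1712 ± 160 in 3 of 4 mice, and their ranges overlapped. *Slco1a1* stood above *Slco1a4* on average only in pair-fed *Apoe* KO liver, at 792 ± 572 against 552 ± 219 per kb, in 2 of 5 mice. Summed per kb, the 4 uptake carriers gave 19383 ± 1635 in pair-fed and 14430 ± 854 in EtOH-fed *Apoe* KO liver, the latter 14514 ± 1026 without mouse 1 of that group. In WT liver the same sums were 16971 ± 2615 when pair-fed and 16922 ± 1691 when EtOH-fed. The 3 exporters into bile gave 4786 ± 342 and 4642 ± 225 in *Apoe* KO and 4305 ± 497 and 4884 ± 220 in WT liver, pair-fed before EtOH-fed.

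**Figure D1:**
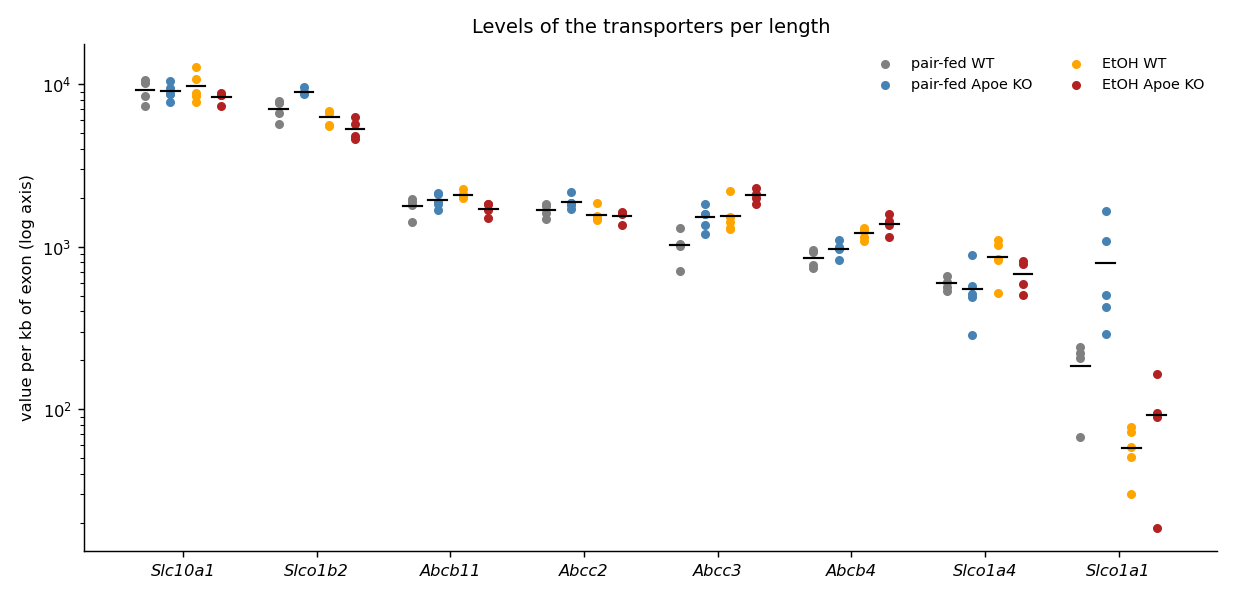
Value per kb of merged exon (log axis) for the 8 transporters, ordered by their mean in pair-fed WT liver. Each point is a mouse, coloured by group, and each bar is the group mean. *Slc10a1* and *Slco1b2* sit above the rest in all groups, and *Slco1a1* spreads over the widest range.

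The genes differed widely in how much they varied among mice. *Slco1a1* ran from 98 to 8756, an 89.3-fold range, and its SD on the log2 scale over the 18 mice, 1.72, was larger than that of 99.4% of genes. The ratio of the highest to the lowest mouse was 3.88 for *Slco1a4*, 3.27 for *Abcc3*, 2.15 for *Abcb4* and 2.10 for *Slco1b2*, and it was 1.75 or less for *Slc10a1*, *Abcb11* and *Abcc2*. The lowest *Slco1a1* value, in EtOH-fed *Apoe* KO mouse 4, corresponded to about 24 reads, whereas every other member had an estimated 740 reads or more in each mouse whose depth was resolved.

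**Figure D2:**
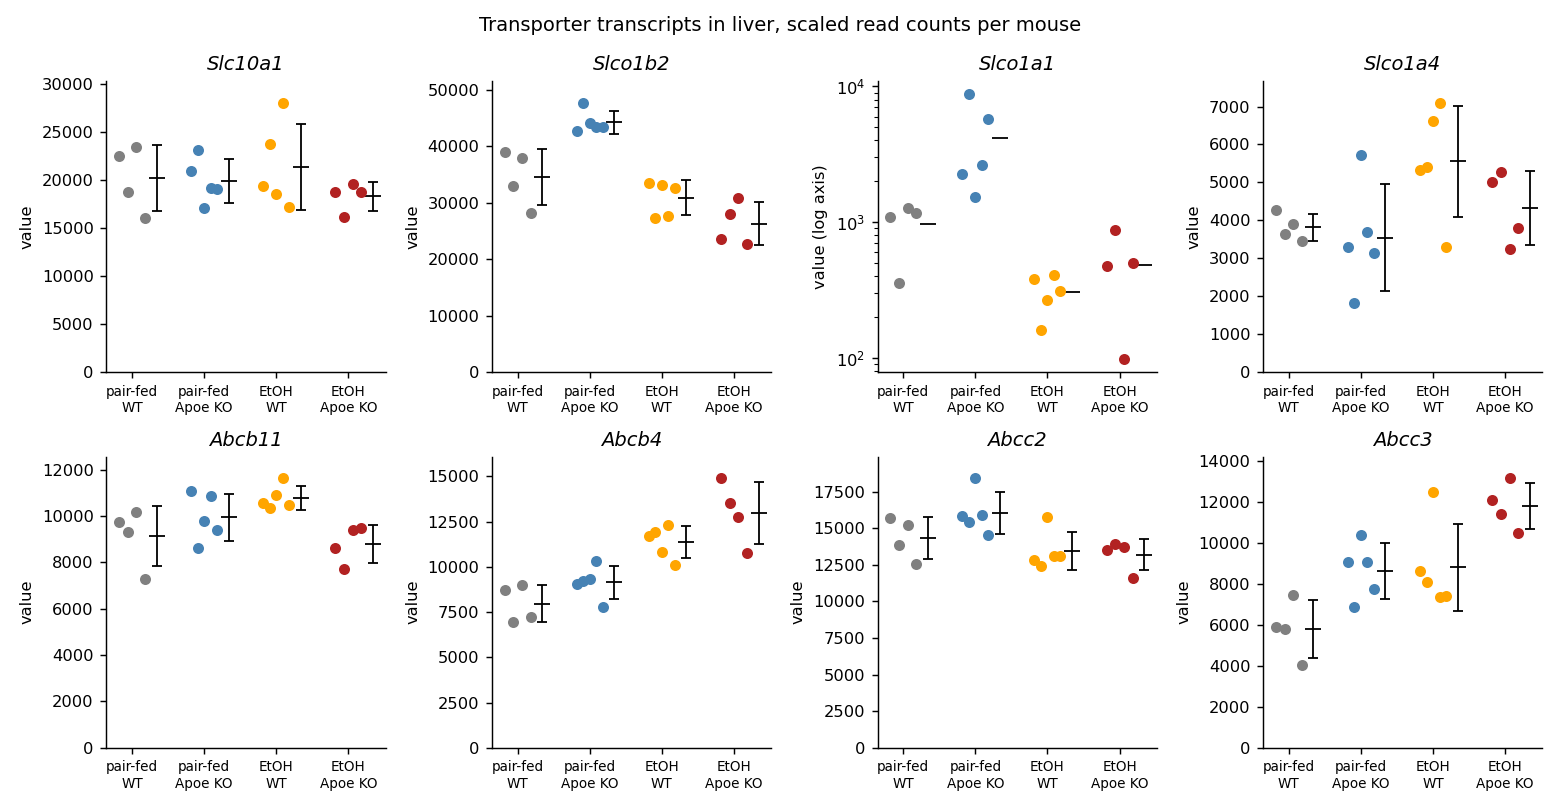
Scaled read counts of the 8 transporters in each of the 18 mice. Points are mice, horizontal bars are group means and error bars are SD, and the *Slco1a1* panel alone has a log axis and no error bars. *Abcb4* is higher in both EtOH-fed groups, *Slco1b2* separates the pair-fed from the EtOH-fed *Apoe* KO mice, and *Slco1a1* is lowest in the EtOH-fed groups.

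In WT liver, *Abcb4* and *Abcc3* rose with ethanol and *Slco1a1* fell, while *Slc10a1*, *Abcb11*, *Abcc2*, *Slco1a4* and *Slco1b2* did not pass the test. The test was limma on log2(value + 1) with Benjamini-Hochberg adjustment over all 15052 genes, and a gene was called at an adjusted p under 0.05. By that rule 3 of the 8 were called, 2 higher and 1 lower, against 12.7% of all genes, 6.19% higher and 6.52% lower. The median log2 fold change was 0.16 over the 8 genes and −0.01 over all genes. Differences between groups are on the log2(value + 1) scale.

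*Abcb4*, the phospholipid flippase, was at 8724, 6932, 8980 and 7250 in the pair-fed WT mice and at 11726, 11911, 10838, 12304 and 10117 in the EtOH-fed WT mice. Every EtOH-fed mouse lay above every pair-fed mouse, and the difference was 0.52 (SE 0.111, limma adjusted p = 0.00892), or 1.43-fold. *Abcc3*, the exporter into blood, was at 5912, 5788, 7474 and 4019 in pair-fed and at 8641, 8107, 12491, 7354 and 7405 in EtOH-fed WT mice. The groups overlapped through pair-fed mouse 3, and the difference was 0.61 (SE 0.183, limma adjusted p = 0.0454), or 1.52-fold. That call was lost when pair-fed mouse 1, 2 or 4 or EtOH-fed mouse 1, 2 or 3 was left out, with limma adjusted p from 0.0652 to 0.134 and differences of 0.44 to 0.63, and when the trend of variance on level was left out of the fit (adjusted p = 0.107).

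*Slco1a1*, an OATP whose transcript is known to be more abundant in male than in female mouse liver, was at 1083, 356, 1276 and 1172 in pair-fed WT mice. It was at 383, 159, 267, 410 and 309 in EtOH-fed WT mice, where all but mice 1 and 4 lay below the lowest pair-fed mouse. It fell by 1.58 (SE 0.354, limma adjusted p = 0.0114), to 0.334 of the pair-fed level, and its adjusted p was 0.0519 when all 4 groups were fitted together. *Slco1a4*, a related OATP, averaged 3813 ± 358 in pair-fed and 5555 ± 1471 in EtOH-fed WT mice, a difference of 0.50 (95% interval 0.11 to 0.89, limma adjusted p = 0.0891). Its adjusted p was 0.00346, at a difference of 0.68, without EtOH-fed WT mouse 5, which had 3306 against 5333 to 7105 in the other EtOH-fed WT mice. *Abcb11* did not overlap between these groups, at 7269 to 10186 in pair-fed and 10329 to 11629 in EtOH-fed mice, but its adjusted p was 0.158. Non-overlap in the higher direction, seen for *Abcb4* and *Abcb11*, was found for 7.43% of all genes. The intervals were −0.27 to 0.42 for *Slc10a1*, −0.33 to 0.14 for *Abcc2* and −0.44 to 0.12 for *Slco1b2*.

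In *Apoe* KO mice 5 of the 8 genes were called between EtOH-fed and pair-fed liver, with *Abcb4* and *Abcc3* higher and *Slco1a1*, *Slco1b2* and *Abcc2* lower. Of all genes 23.2% were called in this comparison, 16.3% higher and 6.92% lower. The median difference was −0.15 over the 8 genes and 0.13 over all genes. Rescaling by median-of-ratios size factors brought the median of all genes to −1e-04, and values under that scaling are given where they move a call. None of the 5 called genes overlapped between these groups, as was the case for 20% of all genes, 14% in the higher and 6.01% in the lower direction. The 5 were picked by the test on the same mice, so their non-overlap is not separate support.

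*Slco1b2*, the OATP with the highest level in these livers, was at 42722, 47757, 44201, 43381 and 43364 in pair-fed *Apoe* KO mice. It was at 23526, 28052, 30892 and 22716 in EtOH-fed *Apoe* KO mice, so that the highest EtOH-fed mouse was well below the lowest pair-fed mouse. It fell by 0.76 (SE 0.109, limma adjusted p = 0.000364), 1.70-fold lower. *Slco1a1* was at 2248, 8756, 1521, 2647 and 5729 in pair-fed and at 473, 869, 98 and 496 in EtOH-fed *Apoe* KO mice. It fell by 3.17 (SE 0.572, limma adjusted p = 0.00169), 9.01-fold lower. Both calls were made under each alternative fit and whichever mouse was omitted, but the difference of *Slco1a1* was −2.53 without EtOH-fed *Apoe* KO mouse 4, the mouse at 98.

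*Abcb4* was at 9039, 9220, 9354, 10320 and 7793 in pair-fed and at 14896, 13549, 12765 and 10785 in EtOH-fed *Apoe* KO mice, all of the latter above all of the former. The difference was 0.50 (SE 0.109, limma adjusted p = 0.00508), or 1.42-fold, and it was 0.38 with adjusted p = 0.0466 under size factors. *Abcc3* was at 9050, 6857, 10406, 9074 and 7742 in pair-fed and at 12068, 11431, 13150 and 10489 in EtOH-fed *Apoe* KO mice. The difference was 0.46 (SE 0.119, limma adjusted p = 0.0136), or 1.38-fold, and it was 0.33 with adjusted p = 0.0702 under size factors.

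*Abcc2*, the exporter of conjugated bilirubin, was at 15829, 15400, 18421, 15945 and 14566 in pair-fed and at 13521, 13902, 13690 and 11608 in EtOH-fed *Apoe* KO mice. It fell by 0.28 (SE 0.095, limma adjusted p = 0.0464), a difference that is small beside those of the *Slco1* genes. The call was lost when any mouse other than pair-fed *Apoe* KO mouse 5 was left out, with adjusted p from 0.0506 to 0.138 for those mice. It was also lost with sample quality weights (adjusted p = 0.0521), with mouse number as a block (0.0985) and without the variance trend (0.0884). Under size factors the difference of *Abcc2* was larger, at −0.41. *Abcb11*, the bile salt pump, differed by −0.17 (limma adjusted p = 0.231), and by −0.30 with adjusted p = 0.0324 under size factors. The intervals were −0.34 to 0.11 for *Slc10a1* and −0.18 to 0.89 for *Slco1a4*.

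Without EtOH-fed *Apoe* KO mouse 1, the mouse with low *Xist*, 4 of the 8 genes were called between EtOH-fed and pair-fed *Apoe* KO liver. Over all single-mouse omissions in this comparison, calls among all 15052 genes ran from 2637 to 3320. *Slco1b2* then differed by −0.71, *Slco1a1* by −3.28, *Abcb4* by 0.43 and *Abcc3* by 0.45, with limma adjusted p of 0.00130, 0.00405, 0.0151 and 0.0310. *Abcc2* was not called, at −0.30 and adjusted p = 0.0602. Of the 4 EtOH-fed *Apoe* KO mice this mouse had the highest *Abcb4* value and neither the highest nor the lowest *Slco1a1* value.

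**Figure D3:**
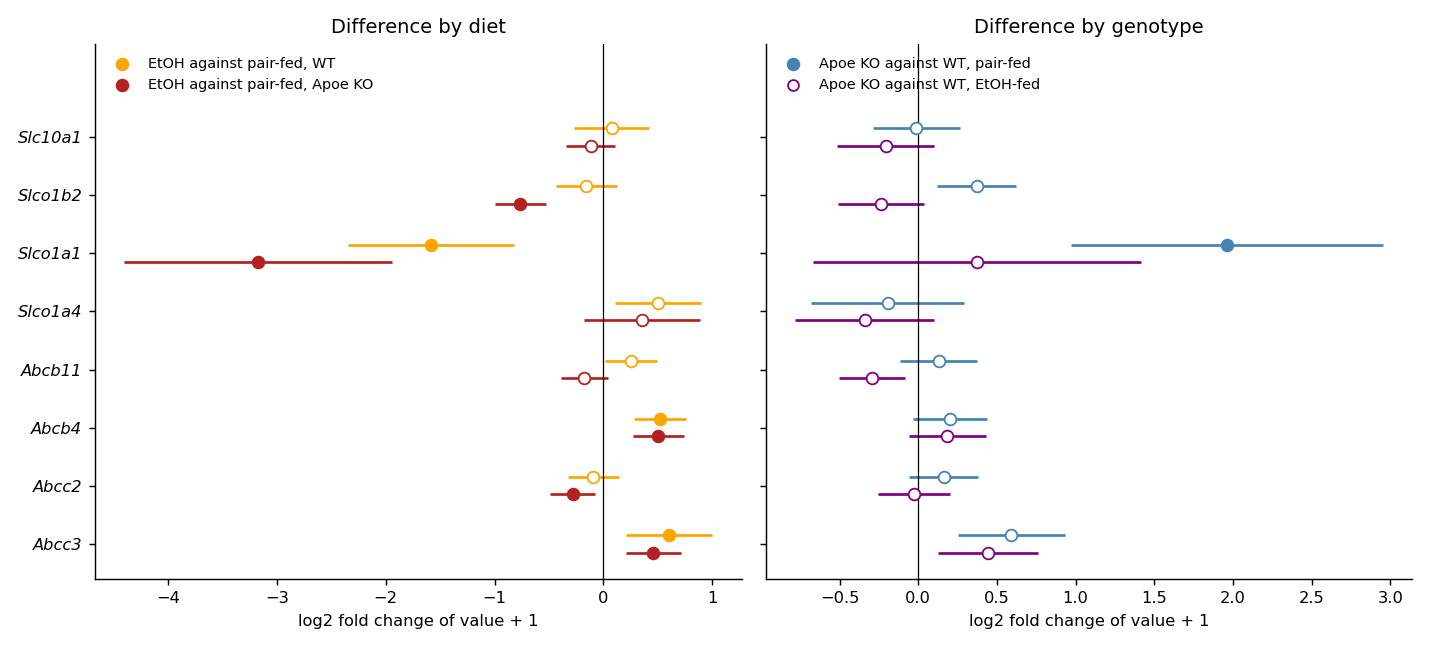
Differences between groups on the log2(value + 1) scale for the 8 transporters, by diet on the left and by genotype on the right. Points are estimates, lines are 95% intervals from limma, and filled points passed an adjusted p of 0.05. *Slco1a1* has the largest differences by diet, *Slco1b2* is filled only for diet in *Apoe* KO mice, and no gene is filled for genotype under ethanol.

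Under ethanol, none of the 8 genes was called between genotypes by limma, against 4.69% of all genes, and 2 had an unadjusted p under 0.05, against 18.9% of all genes. The median difference was −0.12 over the 8 genes and 0.11 over all genes, the latter −0.02 under size factors. *Abcb11* was at 8621, 7722, 9400 and 9493 in EtOH-fed *Apoe* KO mice and at 10574, 10329, 10900, 11629 and 10468 in EtOH-fed WT mice. It was lower in every *Apoe* KO mouse, by −0.29 (95% interval −0.50 to −0.09, limma adjusted p = 0.106), and non-overlap in this direction was found for 1% of all genes. Under size factors the difference was −0.42 with adjusted p = 0.0321. *Abcc3* differed by 0.45 (95% interval 0.13 to 0.76, limma adjusted p = 0.109), and by 0.58 with adjusted p = 0.0130 without EtOH-fed WT mouse 3, whose 12491 was the highest *Abcc3* value of that group.

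The other 6 were less clearly placed under ethanol. Their intervals were −0.51 to 0.10 for *Slc10a1*, −0.06 to 0.43 for *Abcb4*, −0.25 to 0.20 for *Abcc2*, −0.67 to 1.42 for *Slco1a1*, −0.78 to 0.10 for *Slco1a4* and −0.51 to 0.03 for *Slco1b2*. The estimate for *Slco1a1* was 0.37 with all mice and −0.03 without EtOH-fed *Apoe* KO mouse 2. Without EtOH-fed *Apoe* KO mouse 1 the count was again 0.

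In pair-fed liver, *Slco1a1* was called between genotypes and was 3.90-fold higher in *Apoe* KO mice, 1.96 on the log2 scale (SE 0.462, limma adjusted p = 0.0494). It was the only call among the 8, where 1.73% of all genes were called, 0.87% in this direction. Every *Apoe* KO mouse, at 1521 to 8756, lay above every WT mouse, at 356 to 1276. The call stood at the edge of the threshold. It was lost when pair-fed WT mouse 1, 2 or 4 or pair-fed *Apoe* KO mouse 1, 2, 4 or 5 was left out, with adjusted p from 0.0572 to 0.143 and differences of 1.53 to 2.11. It was lost as well without the variance trend (adjusted p = 0.172), with all 4 groups fitted (0.0626) and with mouse number as a block (0.0832). *Slco1b2* did not overlap either, at 42722 to 47757 in *Apoe* KO and 28209 to 38982 in WT mice, with a difference of 0.37 (95% interval 0.12 to 0.62, limma adjusted p = 0.115). Non-overlap in the higher direction was found for 4.01% of all genes. *Abcc3* differed by 0.59 (95% interval 0.25 to 0.94, limma adjusted p = 0.0710), and its adjusted p was 0.0268 without pair-fed WT mouse 3 and 0.0473 without pair-fed *Apoe* KO mouse 2. *Slc10a1* was close in the pair-fed groups, at 20210 ± 3421 (SD) without and 19910 ± 2280 with the knockout (interval −0.29 to 0.26).

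Lists of genes known to differ between male and female mouse liver were read in the same comparisons. Of all genes, 1.73% were called between pair-fed genotypes and 4.69% between EtOH-fed genotypes. With ethanol 12.7% were called in WT and 23.2% in *Apoe* KO mice. Of 11 male-biased genes in the table, 2 were higher in pair-fed *Apoe* KO than in pair-fed WT liver and none was lower. The sum over the 11 was 25524 to 108128 per *Apoe* KO mouse against 17411 to 21706 per WT mouse. Such sums weigh abundant genes most. The mean log2(value + 1) of the 11 overlapped, at 9.15 to 10.49 per *Apoe* KO mouse and 8.73 to 9.22 per WT mouse. Of 12 female-biased genes, 3 were lower and none was higher, with *Cyp2b13* at −5.63, *Cyp2b9* at −5.17 and *Cyp3a44* at −1.81. *Cyp2b13* and *Cyp2b9* lie on chromosome 7 as *Apoe* does, 6.37 and 6.48 Mb from it, so sequence carried with the knockout could include them. Under ethanol, where *Slco1a1* was not called between genotypes, 2 male-biased genes were higher and 4 female-biased genes lower in *Apoe* KO liver, and none was called the other way. Male-biased sums there were 17026 to 35726 per *Apoe* KO mouse against 9972 to 22057 per WT mouse. With ethanol, 1 male-biased gene was higher and 4 lower in WT mice, and 4 were lower in *Apoe* KO mice. Female-biased genes with ethanol gave 2 higher and 4 lower in WT mice, and 1 higher and 2 lower in *Apoe* KO mice. Without EtOH-fed *Apoe* KO mouse 1 the counts under ethanol were 3 male-biased higher and 5 female-biased lower, and those by diet in *Apoe* KO mice were 2 male-biased lower, with 1 female-biased higher and 4 lower. No mouse of these pair-fed groups had *Xist* below 15227. The part of sex-biased expression in the *Slco1a1* result was not tested.

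Whether the effect of ethanol differed between genotypes was tested by the interaction of diet and genotype, fitted by limma over all 18 mice. None of the 8 genes was called, against 2.84% of all genes. An unadjusted p under 0.05 was found for 3 of the 8, against 16.3% of all genes. *Slco1b2* came closest, with a diet effect lower by 0.61 in *Apoe* KO than in WT mice (SE 0.167, limma adjusted p = 0.0527). Its adjusted p was 0.0315 under size factors, 0.0436 without pair-fed WT mouse 1, 0.0403 without pair-fed WT mouse 3, 0.0483 without EtOH-fed WT mouse 4, 0.0438 without EtOH-fed *Apoe* KO mouse 4, 0.0483 with a mean of at least 50 and 0.0383 with quality weights. It was 0.0860 without EtOH-fed *Apoe* KO mouse 1 and highest, at 0.137, without pair-fed WT mouse 4. *Abcb11* differed by −0.42 (SE 0.147, limma adjusted p = 0.129), and by −0.56 with adjusted p = 0.0493 under size factors. *Slco1a1* differed by −1.59 (SE 0.762, limma adjusted p = 0.306). Without EtOH-fed *Apoe* KO mouse 1 these were −0.41 for *Abcb11* and −1.70 for *Slco1a1*, with adjusted p of 0.164 and 0.290. The estimate for *Abcb4* was −0.02, with an interval from −0.34 to 0.31, and that for *Abcc3* was −0.15, with an interval from −0.63 to 0.34. The fall of *Slco1b2* in *Apoe* KO mice was therefore called while its difference from the effect in WT mice was not, and both genotype comparisons and both diet comparisons share mice with this test.

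Of 35 further genes listed for transport of bile acids, sterols, organic anions and cations, 27 were in the table. With ethanol 5 were called higher and 4 lower by limma in WT mice, and 7 higher and 4 lower in *Apoe* KO mice. Of all genes 6.19% were called higher and 6.52% lower in WT mice, and 16.3% and 6.92% in *Apoe* KO mice. The counts with ethanol in the lists below stand beside the same shares. The median differences of the 27 were 0.07 and −0.06. *Abcc4* (MRP4), which like *Abcc3* exports conjugates from the hepatocyte into blood, averaged 221 ± 70.6 (SD) in WT and 356 ± 215 in *Apoe* KO mice when pair-fed, and 1267 ± 331 and 1440 ± 314 when EtOH-fed. It rose by 2.54 in WT and by 2.28 in *Apoe* KO mice (limma adjusted p = 3.22e-05 and 0.0022). The sterol exporters *Abcg5* and *Abcg8*, which form the canalicular cholesterol pump, were lower by 1.15 and 1.01 in WT and by 1.21 and 1.17 in *Apoe* KO mice. *Slc10a2*, the bile acid carrier of ileum and cholangiocytes, was lower by 1.60 and 1.38. *Slc22a3*, an organic cation carrier, was higher by 1.49 and 1.64, and *Ephx1*, microsomal epoxide hydrolase, which is listed here because it has been described as a bile acid carrier, was higher by 1.25 and 0.83.

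Between genotypes, none of the 27 was called in pair-fed liver, and under ethanol *Slc17a2*, a phosphate and anion carrier, was the only call, 0.41 lower in *Apoe* KO mice (limma adjusted p = 0.0424), and it was not called without EtOH-fed *Apoe* KO mouse 1 (0.0745). *Slco2a1*, a prostaglandin carrier, was the only one with a called interaction, at −0.70 (limma adjusted p = 0.0150). *Slco2b1*, a further OATP, and *Abcg2*, a canalicular exporter of sulfated conjugates, named after their values were seen, were not called in any comparison, and their estimates lay between −0.13 and 0.22.

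**Figure D4:**
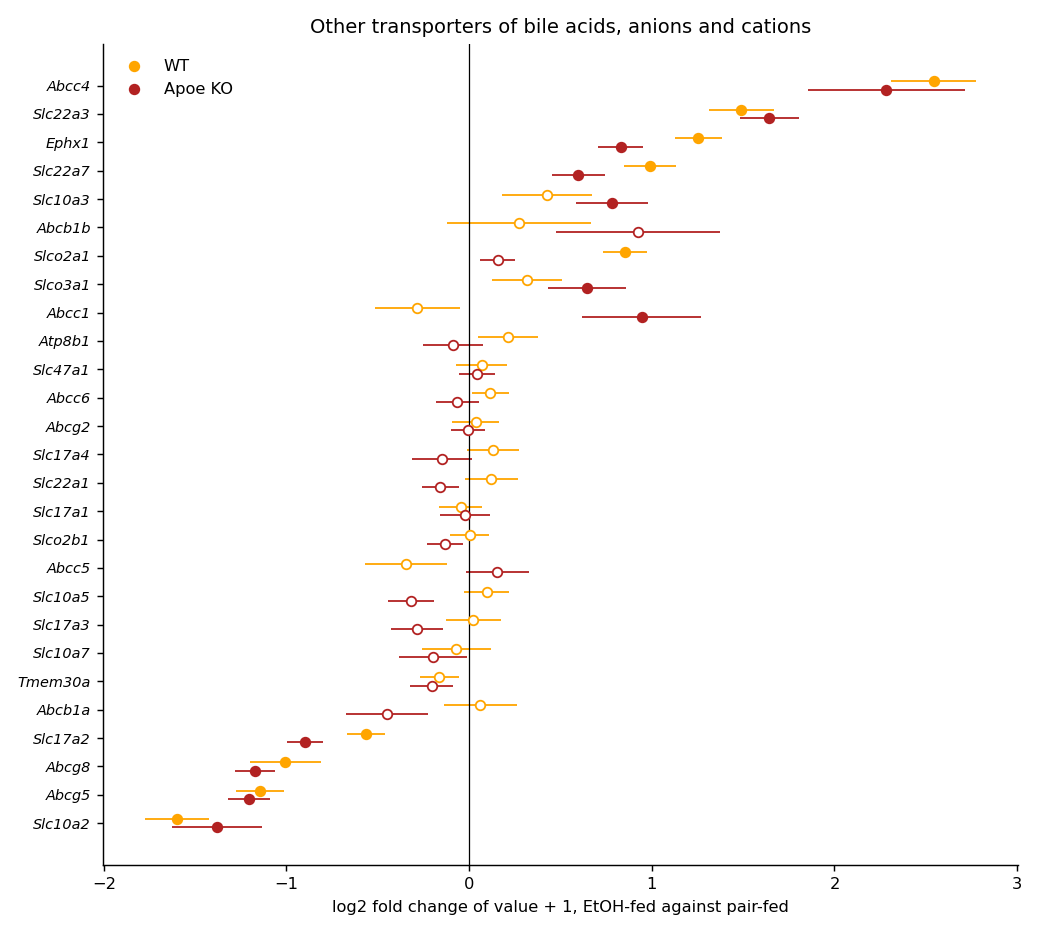
Differences between EtOH-fed and pair-fed liver, on the log2(value + 1) scale, for 27 other transporters in WT and *Apoe* KO mice. Points are estimates, lines are ± 1 SE and filled points passed a limma adjusted p of 0.05. *Abcc4* is the highest in both genotypes and *Slc10a2* the lowest.

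Of 32 receptors and transcription factors known to act on these genes, 29 were in the table. In WT mice 1 was called higher and 4 lower with ethanol, and in *Apoe* KO mice 2 were higher and 9 lower. *Nr1h4* (FXR), the bile acid receptor that induces *Abcb11*, differed by 0.22 in WT and 0.18 in *Apoe* KO mice and was not called. *Nr0b2* (SHP), the repressor that FXR induces, was at 886 ± 358 in pair-fed and 111 ± 27.2 in EtOH-fed *Apoe* KO mice, and fell by 2.92 (limma adjusted p = 2.08e-05). In WT mice it was at 970 ± 290 and 511 ± 339, a difference of −1.26 (limma adjusted p = 0.143), and the interaction was not called (limma adjusted p = 0.209).

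The xenobiotic receptor *Nr1i3* (CAR) fell by 0.61 in WT and by 0.69 in *Apoe* KO mice, and *Ppara*, the fatty acid receptor, fell by 0.69 and by 0.65. *Nr1i2* (PXR) fell by 0.36 in *Apoe* KO mice (limma adjusted p = 0.0481) and differed by −0.27 in WT mice. *Ghr*, the growth hormone receptor, fell by 0.59 in *Apoe* KO mice and differed by −0.27 in WT mice. *Hnf4a*, *Nfe2l2* (NRF2) and *Stat5b* were not called in any comparison. Between EtOH-fed genotypes the only call of the 29 was *S1pr2*, a receptor for conjugated bile acids, 0.95 higher with the knockout (limma adjusted p = 0.00974). The called interactions of the list were those of *S1pr2*, at 0.95, and *Nr5a2* (LRH-1), at −0.55, and neither was called without EtOH-fed *Apoe* KO mouse 1 (limma adjusted p = 0.0660 and 0.0527).

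Of 16 genes for bile acid synthesis and conjugation in the table, 3 were called higher and 2 lower with ethanol in WT mice, and 3 higher and 6 lower in *Apoe* KO mice. None was called between genotypes under either diet. The interaction of diet and genotype was called for 1 of the 16, against 2.84% of all genes. That gene was *Akr1c6*, at −0.69 (limma adjusted p = 0.0117), and at −0.67 without EtOH-fed *Apoe* KO mouse 1 (0.0185). *Cyp7a1*, the rate-limiting enzyme of the classical pathway, averaged 9136 ± 644 and 7344 ± 3306 in pair-fed and EtOH-fed WT mice and 7237 ± 974 and 5888 ± 623 in their *Apoe* KO counterparts, and was not called in any comparison. *Cyp8b1*, which directs synthesis to cholic acid, rose by 0.66 in WT and by 0.79 in *Apoe* KO mice, the latter 0.57 without a call when EtOH-fed *Apoe* KO mouse 1 was left out (limma adjusted p = 0.142). *Cyp39a1* rose by 1.33 in WT mice and by 0.59 in *Apoe* KO mice (limma adjusted p = 0.0189 in the latter). Its interaction was not called (limma adjusted p = 0.176). *Cyp2c70*, which makes muricholic acids in mice, fell by 0.98 in WT and by 0.76 in *Apoe* KO mice, and *Akr1d1*, the 5-beta-reductase, fell by 0.76 in *Apoe* KO mice.

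Among 12 targets of CAR and PXR, 5 were higher and 1 lower with ethanol in WT mice, and 3 were higher and 1 lower in *Apoe* KO mice. *Cyp2b10*, the classical CAR target, rose by 6.02 in WT mice to between 2731 and 20780, and was at 125 to 907 in EtOH-fed *Apoe* KO mice, where its difference from pair-fed was 1.81 (limma adjusted p = 0.106), and 2.37 without EtOH-fed *Apoe* KO mouse 1 (0.0462). It belongs to the same gene cluster as *Cyp2b9* and *Cyp2b13*. The interaction for *Cyp2b10* was −4.21 (limma adjusted p = 0.0344), and −3.65 without EtOH-fed *Apoe* KO mouse 1 (0.0645). *Cyp3a11*, the classical PXR target, rose by 1.05 in WT mice and differed by 0.36 in *Apoe* KO mice. Of 11 NRF2 targets, 6 were higher and none lower in WT mice and 8 were higher and 1 lower in *Apoe* KO mice, with *Srxn1* 2.02 and 2.28 above pair-fed, *Hmox1* 2.44 and 2.91, and *Nqo1*, in the same order, by 0.61 without a call (limma adjusted p = 0.141) and by 0.94 past the threshold (0.00474). Of 13 PPAR alpha targets, 2 were higher and 5 lower in WT mice and 3 were higher and 2 lower in *Apoe* KO mice. Between EtOH-fed genotypes, where 4.69% of all genes were called, 3 NRF2 targets and 1 PPAR alpha target were higher in *Apoe* KO liver. *Cyp2b10*, the only CAR or PXR target called there, was lower by 3.81 (limma adjusted p = 0.00331). These calls were also made without EtOH-fed *Apoe* KO mouse 1.

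Because whole liver was sequenced, marker lists were read in the same comparisons. Of all genes 4.69% were called between EtOH-fed genotypes. With ethanol 16.3% were called higher and 6.92% lower in *Apoe* KO mice, and 6.19% and 6.52% in WT mice. Under ethanol all 10 Kupffer cell markers and 5 of 10 infiltrating macrophage markers were higher in *Apoe* KO than in WT liver, with Kupffer sums of 16933 to 31871 against 7102 to 12844. Without EtOH-fed *Apoe* KO mouse 1, 8 Kupffer and 6 infiltrating macrophage markers were higher. With ethanol in *Apoe* KO mice, 5 Kupffer, 3 infiltrating macrophage, 6 of 10 stellate and 9 of 10 sinusoidal endothelial markers were higher and none of these lists had a lower call. Stellate sums were 11834 to 15639 in pair-fed and 19543 to 35063 in EtOH-fed *Apoe* KO mice. In WT mice with ethanol, 4 Kupffer markers were lower and 6 sinusoidal endothelial markers higher, with endothelial sums of 9190 to 10445 in pair-fed and 11031 to 15465 in EtOH-fed mice. Between pair-fed genotypes, 3 of 10 sinusoidal endothelial markers were lower in *Apoe* KO liver and none higher, against 1.73% of all genes called. Endothelial sums were 5982 to 8685 in pair-fed and 10359 to 16914 in EtOH-fed *Apoe* KO mice. Under ethanol no endothelial marker was called between genotypes. Of 15 hepatocyte markers, 3 were higher with ethanol in WT mice, 1 was higher and 2 were lower in *Apoe* KO mice, and none was called between genotypes. Of 9 biliary markers 1 was higher between genotypes under ethanol, and none of the 10 lymphocyte markers, nor of the 4 of 12 neutrophil markers that were in the table, was called there, although 1 lymphocyte marker was without EtOH-fed *Apoe* KO mouse 1. By diet in *Apoe* KO mice, leaving out that mouse changed the number of higher and of lower calls in each list, those of sex-biased genes aside, by at most 1. The part of these cell types in the transporter results was not tested.

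For each transporter, the 2 genes outside the set whose centred log2 values over the 18 mice lay closest were found, by root mean square difference and with no test. *Slco1b2* was closest to *Ghr*, at 0.128, and *Lactb*, at 0.129, against a root mean square of 0.315 of *Slco1b2* about its own mean. *Slc10a1* was closest to *Lman1* (0.0987 against 0.208), *Abcb11* to *Dnaja1* (0.101 against 0.174) and then *Baat* (0.118), which encodes the enzyme that conjugates bile acids to taurine and glycine, and *Abcc2* to *Pon1* (0.0944 against 0.162). *Abcb4* was closest to *Pglyrp2* (0.113 against 0.298), *Abcc3* to *Gabarapl1* (0.167 against 0.429) and *Slco1a4* to *Tymp* (0.293 against 0.459). *Slco1a1* was closest to *Mycn* (0.749 against 1.67). Among the 8 themselves the closest pair was *Slc10a1* and *Abcb11*, at 0.187, which is less than the spread of *Slc10a1* about its own mean and more than that of *Abcb11*.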

How the data were processed

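Bulk RNA-seq of mouse liver was analysed for 18 mice, grouped by the diet and genotype in the labels. RNA was extracted with TRIzol and selected for polyA. Per the study's methods and the submitters' processing notes, the authors trimmed reads with Trimmomatic, aligned them to GRCm38 with HISAT2, counted them with featureCounts and used DESeq2; FastQC and SAMtools are also named, and versions and the annotation are not given in the sources used here. The deposited values are a signal per gene and mouse, read counts scaled by the authors to a nearly common total and rounded, by a step that is not described. Their table also holds fold changes and p-values of the authors' own comparison, which were not used. Of 15247 lines, 195 repeated a gene with identical values (*Abcc2* among them) and were dropped, which left 15052 genes, with a lowest mean of 12.056 over the mice, and 15040 of them were placed in GENCODE release 21.

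Values were analysed as log2(value + 1), with a pseudocount of 1, with limma 3.58.1 (R 4.3.3, empirical Bayes with an intensity trend). Each comparison used only its own groups, and the interaction used all 18 mice. Adjusted p-values are those of Benjamini and Hochberg over the whole table. Fold changes on this scale understate those of low genes. The comparisons share groups, so their results are not independent. Replicates are separate mice by their labels. On simulated data with known changes, the script was tested before use. Depth was estimated from the spacing of low values, with Python 3.11.15. Intervals are limma's 95% intervals. Alternatives were other scaling, a mean of at least 50, a pseudocount of 10, quality weights, a replicate block, no trend, all 4 groups in the fit, and leaving out each mouse.

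The 8 genes, the gene lists and the tests were chosen with earlier results of these data known. Named from the lists are at most the 4 genes with the lowest p in a comparison and genes whose known role is the reason for the list, and for likeness the 2 nearest genes per transporter.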

Additional observations from a re-analysis of the deposited data

Results flagged for a closer look

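Among the 32 sets of values formed by 8 transporters and 4 groups, 3 held a mouse set apart from the rest of its group, by the share of the group's whole range on the log2 scale that separated it from its nearest neighbour. Chance sets apart about 1 in 20 such sets. *Slco1a1* in pair-fed WT mouse 2, at 356 against 1083 to 1276 in the other 3 mice, had a share of 0.871. *Abcc2* in EtOH-fed *Apoe* KO mouse 5, at 11608 against 13521 to 13902, had a share of 0.846. *Abcc2* in EtOH-fed WT mouse 3, at 15778 against 12432 to 13124, had a share of 0.773. Without EtOH-fed *Apoe* KO mouse 5, the difference of *Abcc2* between EtOH-fed and pair-fed *Apoe* KO mice was −0.22 (limma adjusted p = 0.138). Without pair-fed WT mouse 2, *Slco1a1* differed by 1.53 between the pair-fed genotypes (limma adjusted p = 0.143).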

How the results depend on the processing

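The calls of *Abcb4* with ethanol in both genotypes, and of *Slco1b2* and *Slco1a1* with ethanol in *Apoe* KO mice, were made under every alternative run. With size factors 1 of the 8 genes was called between EtOH-fed genotypes and 2 for the interaction; a mean of at least 50 gave 1 for the interaction, and quality weights 1 for the interaction and 2 (456 of all genes) between pair-fed genotypes. With no trend 368 of all genes were called between EtOH-fed genotypes and 45 between pair-fed genotypes, where it and the fit of all 4 groups left 0 of the 8. Over the alternative fits, single-mouse omissions aside, all genes called ran from 368 to 1083 between EtOH-fed genotypes and 45 to 456 between pair-fed genotypes. For the interaction they ran from 311 to 575. The causes were not tested.

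Mouse numbers were not taken as pairs, since in no comparison was every same-number correlation of deviations over 0.1. Between EtOH-fed genotypes these ran from −0.0242 to 0.23 (mean 0.135), and 3 of 4 mice correlated best with their own number, a hint from the data only; the other means were −0.0481 to 0.0358. The replicate block uses shared numbers, so it also drops a mouse. With it, 1083 of all genes and 1 of the 8 (*Abcc3*) were called between EtOH-fed genotypes and 392 of all genes between pair-fed genotypes; *Abcc2* changed sign to 0.031 in the former and *Slc10a1* to 0.00017 in the latter. The same signs, and the *Abcc3* call, came without a block once the dropped mouse (EtOH-fed WT mouse 3, pair-fed *Apoe* KO mouse 5) was left out.

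Leaving out each mouse in turn, the count of the 8 genes ranged from 0 to 1 between EtOH-fed genotypes, 0 to 2 between pair-fed genotypes, 2 to 4 with ethanol in WT, 4 to 5 in *Apoe* KO mice and 0 to 1 for the interaction. Counts of all genes ranged from 327 to 620, 73 to 670, 1186 to 1904, 2637 to 3320 and 167 to 561. No difference that changed sign was called. Between EtOH-fed genotypes *Abcc2* ranged from −0.055 to 0.032 and *Slco1a1* from −0.028 to 1.02. Between pair-fed genotypes *Slc10a1* ranged from −0.12 to 0.064 and *Slco1a4* from −0.39 to 0.019. With ethanol in WT mice *Slc10a1* ranged from −0.029 to 0.15. For the interaction *Abcb4* ranged from −0.084 to 0.071, *Abcc3* from −0.28 to 0.018 and *Slco1a4* from −0.36 to 0.052. Depth limits *Slco1a1* most, with about 24 reads in its lowest mouse.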
